A study of Homo sapiens with 8 samples.

Results

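Cells make cholesterol and fatty acids from acetyl-CoA along chains of enzymes, and the genes of these chains, with the factors that set their transcription, were followed here in spheres of lung cancer cells. The set held 28 protein-coding genes, chosen by name with earlier results of these data known, of 60106 genes counted. They comprised 7 genes of isoprenoid synthesis, 11 of sterol synthesis, 4 regulators, the sterol carrier STARD4 and 5 genes of fatty acid synthesis and desaturation. Each symbol matched a single gene, and all 28 passed the filter on low counts that left 24185 genes for testing.

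Pneumospheres are floating spheres that tumour cells form when they cannot attach. They came from 4 established non-small cell lung cancer lines, which the labels give as squamous cell carcinoma for EBC1 and adenocarcinoma for H23, H820 and H1975. Each line gave 1 library of spheres exposed for 15 min, without serum, to 25 µg/ml of PD-L1s, which is the immune checkpoint ligand PD-L1 made as a soluble protein, and 1 library of untreated spheres. All spheres had been grown in serum-free medium with growth factors. The labels give no separate cultures within a line, so p-values measure only the spread between these libraries, which may be technical. EBC1 was the only squamous line, and its histology cannot be told apart from its other differences.

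As background, acetyl-CoA is built up to mevalonate and then to isoprenoids, squalene is made from these and closed into lanosterol, and lanosterol is trimmed to cholesterol. The transcription factors SREBP1 and SREBP2 are held in the endoplasmic reticulum by INSIG proteins while sterols are plentiful. When sterols run low they are cut, move to the nucleus and switch on most genes of the chain, together with the factor NF-Y, which binds CCAAT boxes.

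The libraries held between 5559870 and 27524854 counts. The treated library was 4.67 times as deep as the untreated one in EBC1 and 4.28 times in H820, against 0.77 in H23 and 0.94 in H1975. Of 5 squamous markers EBC1 lacked or nearly lacked 4, since KRT5, KRT14 and DSG3 had no counts in either EBC1 library and TP63 had 0.314 CPM in the treated and 0.192 CPM in the untreated one. The other one, SOX2, had 5.78 CPM (treated) and 6.53 CPM (untreated) in EBC1 and 4.06 to 15.6 CPM elsewhere. TP63 was highest in H1975, at 86.7 CPM treated and 87.2 CPM untreated. The sum of 5 lung adenocarcinoma markers was 2.47 CPM (treated) and 1.92 CPM (untreated) in EBC1. It was 7.09 and 7.43 in H23, 70.4 and 48.1 in H820, and 93.2 and 99.5 in H1975. The sum of 5 epithelial markers was 4089.8 CPM (treated) and 3369 CPM (untreated) in EBC1, against 2666 and 1658 in H820, 3551 and 3401 in H1975, and 143 and 145 in H23. The immune marker sum was carried by CD68, with PTPRC at most 0.402 CPM and CD3E at most 0.0472 CPM in any library.

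EBC1 was first set against each other line, step by step along the pathway. Levels are given as CPM, a gene's counts relative to its library's total after TMM scaling, which corrects for differences in library composition. Differences are log2 values of EBC1 minus the other line with their standard error (SE, 2 libraries per line), tested with edgeR's quasi-likelihood F test and Benjamini-Hochberg adjustment over all genes tested, and called at an adjusted p under 0.05. Nearly the whole pathway was higher in EBC1. Since the set was chosen with earlier results of these data known, these counts and those below describe it beside all genes. They do not test an excess. Against H23, 25 of 28 genes were called higher, where 28.3% of all genes tested were, and 2 were called lower, where 33% of all genes were. Against H820, 26 were called higher (25.6% of all genes) and 1 lower (30.1%). Against H1975, 26 were called higher (24.4% of all genes) and 2 lower (28.2%). The median difference of the 28 genes was 1.70 against H23, 2.64 against H820 and 1.63 against H1975, while the median of all genes was -0.12, -0.06 and -0.08. In bulk RNA, a higher level per cell and more cells that express a gene cannot be told apart.

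In all, 23 of the 28 genes were called higher in EBC1 against every other line, where 9.86% of all genes were, and 1 was called lower against every other line, where 10.4% were. For 23 genes both EBC1 libraries lay above all 6 other libraries, which 16% of all genes did, and for 1 gene, PMVK, both lay below, which 17.8% did. The genes outside the 23 were PMVK, FDPS, TM7SF2, EBP and INSIG2. EBC1 had the highest mean of the 4 lines for 24 of 28 genes (85.7%, against 23.1% of all genes). H820 had the lowest mean for 20 of 28 (71.4%, against 22.5%). When a library was left out in turn, 20 to 24 genes were called higher against every other line.

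**Figure D1:**
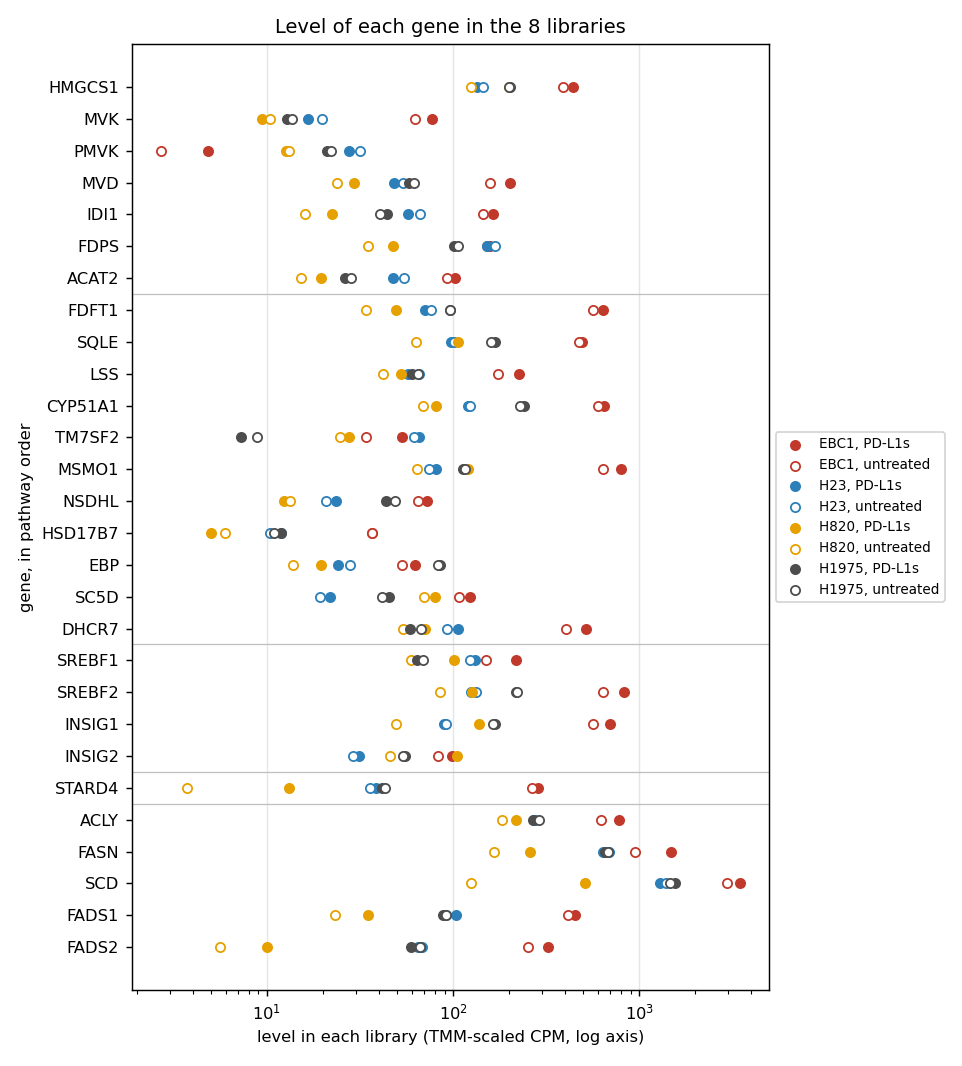
Level of each of the 28 genes in the 8 libraries (horizontal log axis, TMM-scaled CPM), in pathway order from isoprenoid steps at the top through sterol steps, regulators and STARD4 to fatty acid genes. Filled points are treated and open points untreated libraries, and grey lines part the groups of genes. The red EBC1 points lie to the right of all others for 23 genes and to the left for PMVK, and the yellow H820 points are often furthest left.

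Since most of these genes moved together between lines, their promoters are shown for a few of them. RefSeq start sites (GRCh38.p14) were found for 24 of the 28 genes, and windows of 250 bases before to 50 after each start were searched on both strands. CCAAT was present for 19 of 24 genes (79.2%), against 39.7% of 27305 genes with a window. GGGCGG, the GC box, was present for 23 of 24 (95.8%, against 48.3% of all). CACGTG, an E-box, was present for 3 (12.5%, against 8.77%), namely LSS, SC5D and INSIG1. TCACNCCAC, the core of the classical sterol regulatory element, was present for 1 (4.2%, against 1.39%), which was SREBF2. A gene with several windows was counted once if any of them held the motif, over 32 windows of the 24 genes and 35116 of all genes. Among 121 matches in the 32 windows, 0 pairs of different motifs overlapped. The shares of all genes were not limited to genes tested here or to protein-coding genes, so they are not a matched background. A match is a description of letters, not of binding. The 250 bases before the start are printed for 4 genes of the set that were higher in EBC1 and hold CCAAT (MSMO1, MVD, INSIG1 and STARD4), for SREBF2, which holds both CCAAT and the sterol element, and for PMVK, the gene that was lower. They are written 5′ to 3′ along the gene's strand, and capitals mark CCAAT, its reverse complement ATTGG, and the sterol element.
MSMO1 (chr4:165327419-165327668, plus strand): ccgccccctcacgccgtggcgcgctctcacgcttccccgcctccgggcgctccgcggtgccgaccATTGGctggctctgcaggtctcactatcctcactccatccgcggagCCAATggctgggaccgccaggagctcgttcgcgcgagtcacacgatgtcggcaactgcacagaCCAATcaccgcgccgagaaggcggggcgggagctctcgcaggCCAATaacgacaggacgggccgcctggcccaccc
MVD (chr16:88663092-88663341, minus strand): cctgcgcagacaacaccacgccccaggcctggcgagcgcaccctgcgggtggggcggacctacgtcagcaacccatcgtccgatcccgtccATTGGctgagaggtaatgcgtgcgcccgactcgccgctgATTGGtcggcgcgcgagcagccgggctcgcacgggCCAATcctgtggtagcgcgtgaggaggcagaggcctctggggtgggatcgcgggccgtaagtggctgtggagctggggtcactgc
SREBF2 (chr22:41832855-41833104, plus strand): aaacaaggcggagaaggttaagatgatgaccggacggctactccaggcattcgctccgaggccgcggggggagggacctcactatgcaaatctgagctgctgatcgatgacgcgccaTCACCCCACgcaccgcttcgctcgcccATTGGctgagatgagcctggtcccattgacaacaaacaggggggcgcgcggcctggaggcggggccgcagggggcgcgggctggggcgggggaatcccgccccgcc
INSIG1 (chr7:155297628-155297877, plus strand): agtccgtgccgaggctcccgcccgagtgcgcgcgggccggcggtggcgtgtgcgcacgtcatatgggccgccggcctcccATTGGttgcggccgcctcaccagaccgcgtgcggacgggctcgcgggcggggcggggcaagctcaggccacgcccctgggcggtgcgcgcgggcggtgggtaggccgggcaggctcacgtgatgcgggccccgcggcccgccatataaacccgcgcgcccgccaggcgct
STARD4 (chr5:111512536-111512785, minus strand): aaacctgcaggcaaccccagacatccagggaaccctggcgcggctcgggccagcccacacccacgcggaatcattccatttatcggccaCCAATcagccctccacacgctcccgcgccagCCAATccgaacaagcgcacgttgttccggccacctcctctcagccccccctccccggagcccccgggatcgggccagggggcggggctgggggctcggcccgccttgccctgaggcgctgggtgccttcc
PMVK (chr1:154936720-154936969, minus strand): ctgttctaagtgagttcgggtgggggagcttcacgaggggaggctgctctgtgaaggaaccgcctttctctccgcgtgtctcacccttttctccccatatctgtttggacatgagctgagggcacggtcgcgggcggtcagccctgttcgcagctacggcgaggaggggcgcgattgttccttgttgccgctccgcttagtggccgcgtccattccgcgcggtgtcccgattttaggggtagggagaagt
MSMO1 holds 4 CCAAT boxes, with first bases at -185, -139, -76 and -34 from the start, and MVD 3. In SREBF2 the sterol element begins at -133 and the CCAAT box at -106. The PMVK window holds neither motif, and CYP51A1, SREBF1, INSIG2 and FADS1 also have no CCAAT in theirs. Of these 5 genes without CCAAT, CYP51A1, SREBF1 and FADS1 were called higher in EBC1 against every line, INSIG2 against H23 and H1975, and PMVK was called lower against every line.

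The isoprenoid steps were higher in EBC1 with 2 exceptions. HMGCS1, the synthase that joins acetyl units before the mevalonate step, had 439.7 CPM (treated) and 387 CPM (untreated) in EBC1, against 135 and 145 in H23, 201 and 124 in H820, and 203 and 199.98 in H1975. Both EBC1 libraries were above the other 6, by log2 1.55 ± 0.187 against H23 (adjusted p = 1.01e-06), 1.36 ± 0.187 against H820 (adjusted p = 6.36e-06) and 1.03 ± 0.185 against H1975 (adjusted p = 0.000119). ACAT2, which condenses acetyl-CoA at the entry of the chain, had 102 CPM (treated) and 92.6 CPM (untreated) in EBC1, against 47.3 and 54.6 in H23, 19.6 and 15.2 in H820, and 26.2 and 28.1 in H1975. Its difference was 0.94 ± 0.156 against H23, 2.46 ± 0.171 against H820 and 1.85 ± 0.161 against H1975. MVK, mevalonate kinase, had 76.6 CPM (treated) and 62.1 CPM (untreated) in EBC1 and 9.38 to 19.8 CPM in the other 6 libraries. Its difference was 1.94 ± 0.168 against H23, 2.84 ± 0.185 against H820 and 2.40 ± 0.172 against H1975.

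PMVK, phosphomevalonate kinase, acts directly after MVK and went the other way. It had 4.84 CPM (treated) and 2.69 CPM (untreated) in EBC1, from 108 and 14 read pairs. The other libraries held 27.8 CPM (treated) and 31.6 CPM (untreated) in H23, 12.7 and 13.2 in H820, and 21.1 and 22.0 in H1975. PMVK was 7.04-fold lower in EBC1 than in H23 (log2 -2.82 ± 0.217, adjusted p = 2.46e-09), 3.06-fold lower than in H820 (-1.62 ± 0.228, adjusted p = 8.28e-06) and 5.11-fold lower than in H1975 (-2.35 ± 0.217, adjusted p = 4.54e-08). MVD, the decarboxylase that follows it, was again higher, with 203 CPM (treated) and 157 CPM (untreated) in EBC1 and 23.7 to 61.3 CPM elsewhere. Its difference was 1.81 ± 0.164 against H23, 2.75 ± 0.174 against H820 and 1.59 ± 0.162 against H1975. IDI1, the isomerase of the isoprenoid unit, had 163 CPM (treated) and 145 CPM (untreated) in EBC1, against 16.1 to 66.0 CPM in the others. Its difference was 1.31 ± 0.160 against H23, 2.98 ± 0.176 against H820 and 1.86 ± 0.163 against H1975.

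FDPS, which makes farnesyl diphosphate, was the other exception. It had 152 CPM (treated) and 159 CPM (untreated) in EBC1, against 153 and 168 in H23, 47.3 and 34.7 in H820, and 101 and 107 in H1975. EBC1 and H23 overlapped, and their difference was -0.05 ± 0.162 (adjusted p = 0.808). FDPS was higher in EBC1 than in H820 (1.90 ± 0.171, adjusted p = 3.15e-08) and H1975 (0.58 ± 0.163, adjusted p = 0.00606), the last not called without the treated H1975 library (adjusted p = 0.12). With scaling by library size only, FDPS was lower in EBC1 than in H23 by -0.62 ± 0.132 (adjusted p = 0.000223). That scaling moved the median of all genes in this contrast to -0.68.

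**Figure D2:**
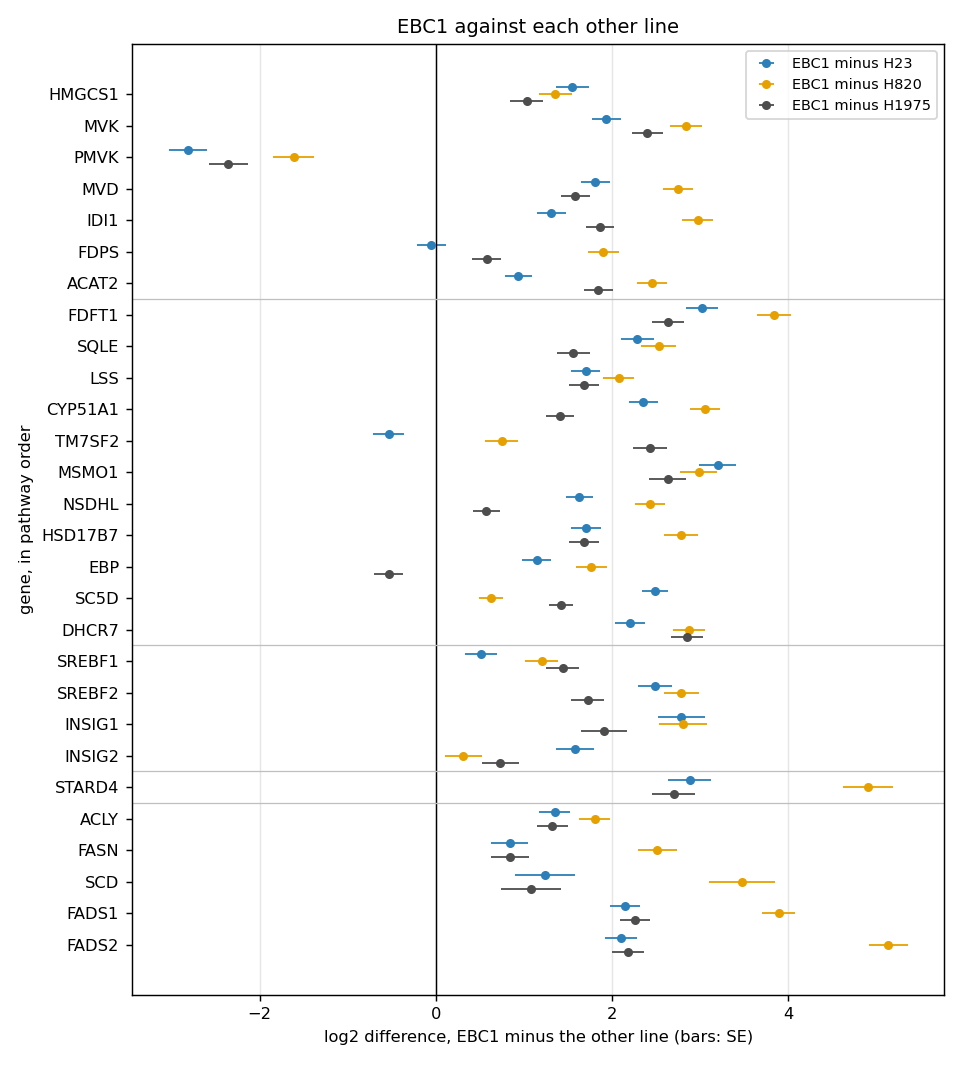
Difference of EBC1 from each other line for the 28 genes in pathway order (horizontal axis, log2, EBC1 minus the named line, with bars for the SE). Points right of the line at 0 are higher in EBC1. Only PMVK is left of 0 against every line, and the points against H820 reach furthest right, up to 5.14 for FADS2.

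The sterol steps held some of the largest differences. FDFT1, squalene synthase, which draws farnesyl units into the sterol branch, had 635 CPM (treated) and 564 CPM (untreated) in EBC1, against 70.8 and 76.0 in H23, 49.5 and 33.9 in H820, and 96.6 and 96.0 in H1975. It was 8.13-fold higher in EBC1 than in H23 (log2 3.02 ± 0.183, adjusted p = 8.76e-11), 14.3-fold higher than in H820 (3.84 ± 0.192, adjusted p = 1.31e-11) and 6.21-fold higher than in H1975 (2.63 ± 0.180, adjusted p = 8.51e-10). The lowest EBC1 value was thus several times the highest value of any other line. SQLE, the squalene epoxidase, had 494 CPM (treated) and 477 CPM (untreated) in EBC1, against 97.2 and 101 in H23, 106 and 63.0 in H820, and 169 and 161 in H1975. Its difference was 2.29 ± 0.192 against H23, 2.53 ± 0.196 against H820 and 1.56 ± 0.188 against H1975. LSS, which closes the ring to lanosterol, had 227 CPM (treated) and 174 CPM (untreated) in EBC1 and 42.2 to 65.7 CPM in the other 6 libraries. It differed by 1.70 ± 0.169 against H23, 2.07 ± 0.173 against H820 and 1.68 ± 0.169 against H1975.

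After lanosterol, methyl groups are removed and double bonds moved. CYP51A1, the first demethylase, had 645 CPM (treated) and 603 CPM (untreated) in EBC1, against 121 and 123 in H23, 81.2 and 69.1 in H820, and 239 and 229 in H1975. Its difference was 2.35 ± 0.165 against H23, 3.05 ± 0.172 against H820 and 1.41 ± 0.160 against H1975. MSMO1, the sterol methyl oxidase, had the highest sterol-step level in EBC1, at 802 CPM (treated) and 639 CPM (untreated), against 81.2 and 74.4 in H23, 120.3 and 64.2 in H820, and 113 and 116 in H1975. It was 9.19-fold higher in EBC1 than in H23 (log2 3.20 ± 0.210, adjusted p = 2.67e-10), 7.91-fold higher than in H820 (2.98 ± 0.210, adjusted p = 1.16e-09) and 6.19-fold higher than in H1975 (2.63 ± 0.205, adjusted p = 4.90e-09). Its partner NSDHL, a dehydrogenase, had 72.0 CPM (treated) and 64.9 CPM (untreated) in EBC1, 23.6 and 20.8 in H23, 12.4 and 13.4 in H820, and 43.6 and 48.7 in H1975. The difference of NSDHL was 1.63 ± 0.156 against H23, 2.43 ± 0.170 against H820 and 0.57 ± 0.152 against H1975 (adjusted p = 0.00386). Without the treated EBC1 library the last of these was not called (adjusted p = 0.0672), nor without the treated H1975 library (adjusted p = 0.166).

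HSD17B7, the ketosteroid reductase of the same demethylation, had 36.5 CPM in both EBC1 libraries and 5.02 to 11.9 CPM elsewhere. It was higher in EBC1 by 1.71 ± 0.170 against H23, 2.78 ± 0.195 against H820 and 1.68 ± 0.170 against H1975. Its counts are uncertain, since 2 annotated pseudogenes of the same name held 0 to 413 read pairs per library against 35 to 815 for the gene. SC5D, a desaturase near the end of the chain, had 124 CPM (treated) and 108 CPM (untreated) in EBC1, against 21.9 and 19.3 in H23, 79.9 and 70.1 in H820, and 45.1 and 41.3 in H1975. It was the sterol enzyme nearest to EBC1 in H820, with a difference of 0.63 ± 0.141 there (adjusted p = 0.000955), against 2.49 ± 0.148 in H23 and 1.42 ± 0.141 in H1975. DHCR7, which makes cholesterol from its direct precursor, had 517 CPM (treated) and 402 CPM (untreated) in EBC1, against 106 and 92.5 in H23, 70.9 and 53.7 in H820, and 58.7 and 67.1 in H1975. The difference of DHCR7 was 2.20 ± 0.174 against H23, 2.88 ± 0.181 against H820 and 2.85 ± 0.179 against H1975.

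TM7SF2 and EBP broke the order of the lines. TM7SF2, a sterol reductase acting after CYP51A1, had 52.9 CPM (treated) and 34.2 CPM (untreated) in EBC1, against 65.8 and 61.4 in H23, 27.5 and 24.7 in H820, and 7.26 and 8.86 in H1975. It was lower in EBC1 than in H23 (-0.54 ± 0.177, adjusted p = 0.0138) and higher than in H820 (0.75 ± 0.185, adjusted p = 0.00217) and H1975 (2.43 ± 0.195, adjusted p = 7.14e-09). The call against H23 was lost without the untreated H23 library (adjusted p = 0.0786) and without the untreated EBC1 library (adjusted p = 0.285). The call against H820 was lost without the treated EBC1 library (adjusted p = 0.123). EBP, the isomerase that shifts the ring double bond, had 62.3 CPM (treated) and 53.4 CPM (untreated) in EBC1, against 24.2 and 27.9 in H23, 19.6 and 13.9 in H820, and 85.0 and 83.1 in H1975. It was lower in EBC1 than in H1975 (-0.54 ± 0.161, adjusted p = 0.00913) and higher than in H23 (1.15 ± 0.166) and H820 (1.76 ± 0.176). Its call against H1975 was lost without the untreated EBC1 library (adjusted p = 0.111) and without the untreated H1975 library (adjusted p = 0.094).

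Among the regulators, SREBF2, the gene of SREBP2, which drives sterol genes, stood furthest apart with INSIG1. SREBF2 had 826 CPM (treated) and 637 CPM (untreated) in EBC1, against 125 and 133 in H23, 127 and 85.2 in H820, and 218 and 221 in H1975. It was 5.62-fold higher in EBC1 than in H23 (log2 2.49 ± 0.192, adjusted p = 2.46e-09), 6.91-fold higher than in H820 (2.79 ± 0.195, adjusted p = 1.08e-09) and 3.30-fold higher than in H1975 (1.72 ± 0.186, adjusted p = 3.43e-07). SREBF1, which encodes SREBP1, the driver of fatty acid genes, had 217 CPM (treated) and 150.1 CPM (untreated) in EBC1, 131 and 123 in H23, 101 and 59.4 in H820, and 63.8 and 68.6 in H1975. The difference of SREBF1 was 1.20 ± 0.187 against H820 and 1.44 ± 0.187 against H1975, but only 0.51 ± 0.183 against H23 (adjusted p = 0.0216). With library size only, the SREBF1 difference from H23 was -0.05 ± 0.143 (adjusted p = 0.769), and it was also not called by DESeq2 (adjusted p = 0.0659), without the treated H23 library (0.259) or without the treated EBC1 library (0.285).

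INSIG1, the sterol-sensing anchor that is itself a target of SREBP, had 701 CPM (treated) and 563 CPM (untreated) in EBC1, against 89.1 and 91.2 in H23, 138 and 49.5 in H820, and 167 and 165 in H1975. It differed by 2.78 ± 0.267 against H23, 2.81 ± 0.270 against H820 and 1.91 ± 0.258 against H1975. Its relative INSIG2 had 99.0 CPM (treated) and 83.4 CPM (untreated) in EBC1, 31.2 and 29.1 in H23, 104 and 45.6 in H820, and 55.1 and 53.5 in H1975. The treated H820 library thus lay above both EBC1 libraries, and INSIG2 was not called against H820 (0.31 ± 0.210, adjusted p = 0.22). INSIG2 was higher in EBC1 than in H23 (1.58 ± 0.213) and H1975 (0.73 ± 0.208, adjusted p = 0.00639), the last not called without the treated H1975 library (adjusted p = 0.0992). Without the treated H820 library it was called higher than in H820 (0.95 ± 0.177, adjusted p = 9.11e-06), and without the untreated H820 library the value was -0.13 ± 0.154 (adjusted p = 0.495).

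STARD4, a soluble carrier that moves cholesterol between membranes, had 285 CPM (treated) and 265 CPM (untreated) in EBC1, against 38.7 and 35.9 in H23, 13.2 and 3.73 in H820, and 41.3 and 42.9 in H1975. It was 7.37-fold higher in EBC1 than in H23 (log2 2.88 ± 0.247, adjusted p = 1.09e-08), 29.9-fold higher than in H820 (4.90 ± 0.285, adjusted p = 8.99e-11) and 6.50-fold higher than in H1975 (SE 0.245 on the log2 scale, adjusted p = 3.66e-08). The untreated H820 value came from 22 read pairs and the treated one from 284.

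All 5 fatty acid genes were higher in EBC1 against every line. ACLY, which releases acetyl-CoA from citrate, had 779.6 CPM (treated) and 624 CPM (untreated) in EBC1, against 274 and 276 in H23, 219 and 183 in H820, and 267 and 291 in H1975. Its difference was 1.35 ± 0.174 against H23, 1.80 ± 0.177 against H820 and 1.32 ± 0.174 against H1975. FASN, fatty acid synthase, had 1484 CPM (treated) and 952 CPM (untreated) in EBC1, against 639.5 and 689 in H23, 259.8 and 167 in H820, and 653 and 675 in H1975. It differed by 0.84 ± 0.211 against H23 (adjusted p = 0.00215), 2.51 ± 0.221 against H820 (adjusted p = 2.40e-08) and 0.84 ± 0.211 against H1975 (adjusted p = 0.0025). FASN was no longer called against H23 without the treated H23 library (adjusted p = 0.0936), without the treated EBC1 library (0.0943) or with library size only (0.0879). Against H1975 its call was lost without the treated EBC1 library (adjusted p = 0.087) or the treated H1975 library (0.123).

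SCD, the desaturase that makes oleate from stearate, was the most abundant of the 28 genes. It had 3479.7 CPM (treated) and 2973 CPM (untreated) in EBC1, against 1287 and 1392 in H23, 512 and 125 in H820, and 1563 and 1471 in H1975. SCD was higher in EBC1 by 1.24 ± 0.343 against H23 (adjusted p = 0.00449), 3.47 ± 0.377 against H820 (adjusted p = 3.42e-07) and 1.08 ± 0.341 against H1975 (adjusted p = 0.0128). The spread shared by all lines includes H820, where the ratio of treated to untreated CPM was 4.08. This ratio was 1.17 in EBC1, 0.925 in H23 and 1.06 in H1975. Both EBC1 libraries lay above all 6 others for SCD. By DESeq2 it was not called against H23 (adjusted p = 0.111) or H1975 (0.178), nor without the untreated EBC1 library (0.08 against H23 and 0.134 against H1975). Without the treated H1975 library the call against H1975 was lost too (adjusted p = 0.0676).

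The polyunsaturated fatty acid desaturases FADS1 and FADS2 overlap on chromosome 11 (FADS1 from 61567097 to 61584634 and FADS2 from 61560452 to 61634826, GRCh37, on opposite strands, with 142 exonic bases in common that were counted by strand). FADS1 had 453 CPM (treated) and 412 CPM (untreated) in EBC1, against 103 and 91.4 in H23, 34.7 and 23.2 in H820, and 88.4 and 91.3 in H1975. FADS2 had 325 CPM (treated) and 252 CPM (untreated) in EBC1, against 68.5 and 64.5 in H23, 9.99 and 5.59 in H820, and 59.2 and 66.0 in H1975. FADS2 had the largest difference of all, 35.2-fold higher in EBC1 than in H820 (log2 5.14 ± 0.219, adjusted p = 2.04e-12). Its difference was 2.11 ± 0.181 against H23 and 2.19 ± 0.182 against H1975, close to the 2.15 ± 0.170 and 2.26 ± 0.171 of FADS1. The difference of FADS1 against H820 was 3.89 ± 0.187.

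Levels of different genes were compared after division by exonic length, as TMM-scaled FPKM (CPM per kilobase), the mean of both libraries of a line. SCD ranked 1 of 28 in every line, at 601.7 FPKM in EBC1, 249.9 in H23, 59.5 in H820 and 283 in H1975. In EBC1 it was followed by MSMO1 (284 FPKM), INSIG1 (205 FPKM) and CYP51A1 (186 FPKM), and PMVK was last at 2.94 FPKM. The ranks of MSMO1 elsewhere were 10 in H23, 4 in H820 and 10 in H1975. The ranks of INSIG1 were 11, 5 and 8 in the same lines. In EBC1 the PMVK level was below that of MVK before it (23.6 FPKM) and MVD after it (98.6 FPKM). In the other lines PMVK lay above MVK, with 23.2 FPKM against 6.21 in H23, 10.1 against 3.35 in H820, and 16.8 against 4.50 in H1975. The lowest levels of all were those of STARD4 (1.53 FPKM) and FADS2 (1.56 FPKM) in H820.

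**Figure D3:**
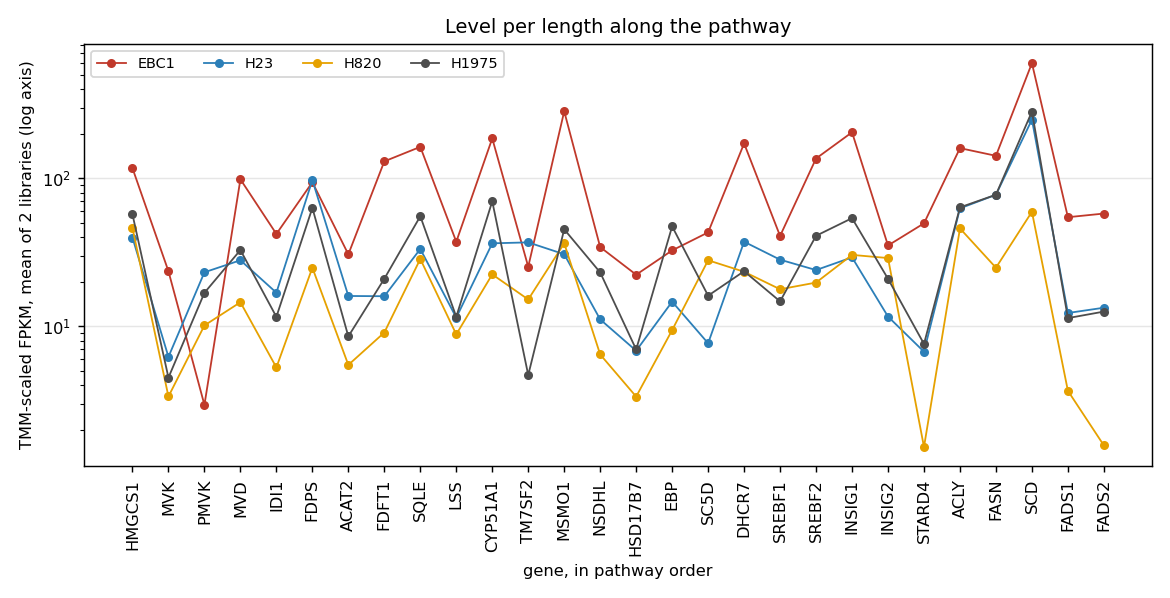
Level per length of the 28 genes in pathway order (vertical log axis, TMM-scaled FPKM, mean of the treated and untreated library), with 1 line of points per cell line. EBC1 runs above the other lines at most steps and drops below them at PMVK, at 2.94 FPKM, and all lines peak at SCD.

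Because PMVK (chromosome 1 from 154897210 to 154909467, GRCh37) and FDPS (chromosome 1 from 155278539 to 155290457) lie near each other and were the isoprenoid genes that departed from the pattern, the genes around every member were described. This was chosen after the values were seen. Protein-coding genes within 500 kb of a member were counted by their call in EBC1 against the mean of the other lines, where 28.1% of all genes were called higher and 26.4% lower. These shares are over genes of every type. When only protein-coding genes were tested against H23, 32.7% were called higher and 37.1% lower, against 28.3% and 33% of all genes. Of 35 such neighbours of PMVK, 31 were lower in EBC1 and 1 higher, with a median difference of -1.21. Of 33 neighbours of FDPS, 32 were lower and 1 higher, with a median of -1.11. The neighbourhoods of PMVK and FDPS overlap, so they are not independent. FDPS itself differed by 0.81 from the mean of the others and PMVK by -2.26, so FDPS lay above its surroundings and PMVK below them. Examples are ADAR, an RNA-editing enzyme, with a mean of 195 CPM in EBC1 and 470 CPM in the other libraries, and MUC1, a membrane mucin, with 13.5 CPM in EBC1 and 275 CPM in the others.

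Other genes lay among neighbours that were mostly higher in EBC1. Of the neighbours of CYP51A1, 9 of 10 were higher, as were 11 of 15 around MVK, 27 of 37 around TM7SF2, 16 of 21 around FADS1, 17 of 23 around FADS2 and 16 of 25 around SREBF2. The neighbourhoods of FADS1 and FADS2 overlap, so they are not independent. Around FDFT1, MSMO1, STARD4, INSIG1 and DHCR7, in contrast, the median of the neighbours was between -0.10 and 0.23, while the genes themselves differed by 2.50 to 3.50. HMGCS1 was higher by 1.31 although 6 of its 9 neighbours were lower (median -1.09). LSS was higher by 1.82 with 9 of 12 neighbours lower, and EBP by 0.79 with 11 of 19 lower. The median of -4.09 around NSDHL came from 8 genes, of which 1 was called lower and 2 higher.

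**Figure D4:**
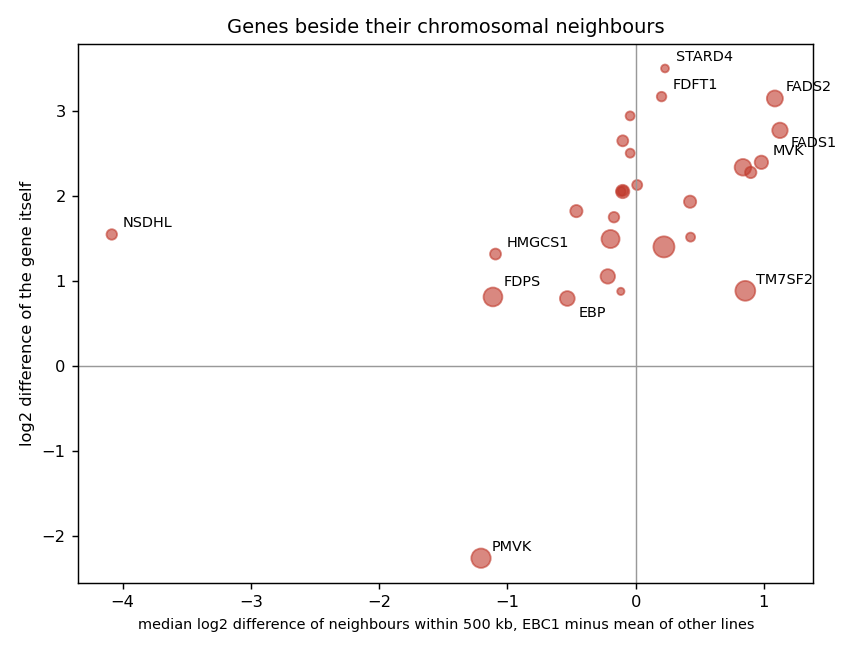
Each point is 1 of the 28 genes, with the median log2 difference of its protein-coding neighbours within 500 kb (horizontal axis) and its own difference (vertical axis), both EBC1 minus the mean of the other lines. Larger points have more neighbours. Points lie above 0 over the whole range of neighbour medians except PMVK, at -2.26 and among neighbours with a median of -1.21.

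Genes of 4 adjoining routes, also chosen with earlier results of these data known, were counted in the same way. Of 43 such genes tested (44 listed), 9 were higher in EBC1 against every line (20.9%, against 9.86% of all genes) and 4 lower (9.3%, against 10.4% of all genes). The 4 lower genes, named here after their values were seen, were ACACB, an acetyl-CoA carboxylase, PGGT1B, the lipoprotein receptor SCARB1 and LRP1. ACACA, the other acetyl-CoA carboxylase gene, also named after the values were seen, was among the 9 higher ones. In EBC1 ACACA had 254 CPM (treated) and 229 CPM (untreated), and ACACB 3.32 and 2.31 CPM. Among other lipid synthesis genes 6 of 15 were higher against every line (40.0%) and 1 lower (6.67%), beside those same shares of all genes. The counts of the other 3 routes, given next, are of at most 10 genes each and lie within about 1 gene of these shares. ACSS2, which makes acetyl-CoA from acetate, had 544 CPM (treated) and 423 CPM (untreated) in EBC1 and 17.1 to 69.5 CPM elsewhere, with differences of 3.03 against H23, 4.67 against H820 and 2.83 against H1975. LPIN1, a phosphatidate phosphatase, had 320.0 CPM (treated) and 286 CPM (untreated) in EBC1 and 63.0 to 78.6 CPM elsewhere, and AACS, the acetoacetyl-CoA synthetase, 132 and 106 CPM in EBC1 and 22.5 to 35.8 CPM elsewhere. LPIN1 and AACS were called higher against every line.

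MBTPS1 and MBTPS2, the proteases that cut SREBP, differed by 0.12 and 0.70 against H23, 0.79 and 1.20 against H820, and 0.62 and 0.33 against H1975, with adjusted p = 0.514 for MBTPS1 against H23 and 0.0825 for MBTPS2 against H1975. Of 10 genes of the isoprenoid side branches, 0 were higher against every line and 1 was lower. This was PGGT1B, a subunit of a prenyltransferase, with 26.1 CPM (treated) and 26.7 CPM (untreated) in EBC1 and 42.6 to 49.6 CPM elsewhere. GGPS1, which makes geranylgeranyl diphosphate, was lower than in H820 (-1.16) and H1975 (-1.38) but was not called against H23 (-0.27, adjusted p = 0.161). PDSS2, of the coenzyme Q side chain, was lower than in H23 (-0.75) and H820 (-1.56) and was not called against H1975 (-0.40, adjusted p = 0.119).

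Of 10 genes of cholesterol trafficking and esterification, 2 were higher against every line, NPC2 and the sterol transfer protein OSBP, and 2 lower, LRP1 and SCARB1. NPC2, which hands cholesterol out of lysosomes, had 222 CPM (treated) and 174 CPM (untreated) in EBC1, against 12.5 and 11.5 in H23, 64.7 and 46.1 in H820, and 136 and 141 in H1975. Its membrane partner NPC1 was higher than in H23 (2.40) and H820 (2.11), while against H1975 its difference was -0.09 (adjusted p = 0.677). LRP1, a lipoprotein receptor, was lower against every line, with 217 CPM (treated) and 185 CPM (untreated) in EBC1 and 490.5 to 885 CPM elsewhere. Of 8 genes controlled by the sterol sensor LXR or acting in cholesterol export, 1 was higher against every line, MYLIP, a ubiquitin ligase that removes lipoprotein receptors, by 2.36 against H23, 0.41 against H820 and 0.82 against H1975. ABCA1, the cholesterol exporter, was lower than in H23 (-0.87) and H1975 (-1.71) and higher than in H820 (0.73). LPCAT3, a phospholipid acyltransferase, had 56.0 CPM (treated) and 44.0 CPM (untreated) in EBC1, against 44.4 and 41.4 in H23, 6.88 and 9.48 in H820, and 11.9 and 13.4 in H1975. It was called higher against H820 and H1975 and was not called against H23 (0.24, adjusted p = 0.24).

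Treated spheres were then set against untreated spheres over the 4 lines, with the line as a term so that each line was its own control. None of the 28 genes was called by edgeR, where 0.0289% of all genes were called higher and 0.00827% lower. An unadjusted p under 0.05 was found for 4 of the 28, and for 873 of all 24185 genes. DESeq2 called 0 of the 28 with 0 under 0.05 unadjusted, and limma-voom called 0 with 6. With these tools the unadjusted p was not counted over all genes. The fitted change of PD-L1s minus untreated was above 0 for 26 of 28 genes and for 14496 of all 24185, with a median of 0.17 against 0.04 for all genes. It was 0.52 ± 0.249 for SCD, 0.42 ± 0.182 for INSIG1, 0.38 ± 0.149 for INSIG2, 0.32 ± 0.139 for MSMO1, 0.31 ± 0.131 for SREBF1, 0.28 ± 0.149 for FASN and 0.21 ± 0.130 for SREBF2 (SE, n = 4 lines, adjusted p = 1 for each with edgeR). The other 21 genes lay between -0.03 and 0.29.

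The lines did not contribute evenly. Ratios of CPM within a line, formed with a prior count of 5, compare 1 library with 1 other and carry no test. In H820, 24 of 28 genes were above 0 with a median log2 ratio of 0.48 (0.14 for all genes), and 4 were over 2-fold higher, where 4.23% of genes with at least 50 counts were. In EBC1, 27 of 28 were above 0 with a median of 0.24 (0.13 for all genes) and 0 were over 2-fold higher (1.33% of all). In H23, 11 of 28 were above 0 with a median of -0.04 (-0.01 for all genes) and 0 were over 2-fold higher (0.136% of all). In H1975, 11 of 28 were above 0 with a median of -0.05 (-0.005 for all genes) and 0 were over 2-fold higher (0.113% of all). All genes here are those with at least 50 counts, and their share above 0 was not counted. None of the 28 was over 2-fold lower in any line, where 0.115% of genes were in EBC1, 0.0906% in H23, 0.873% in H820 and 0.0266% in H1975.

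**Figure D5:**
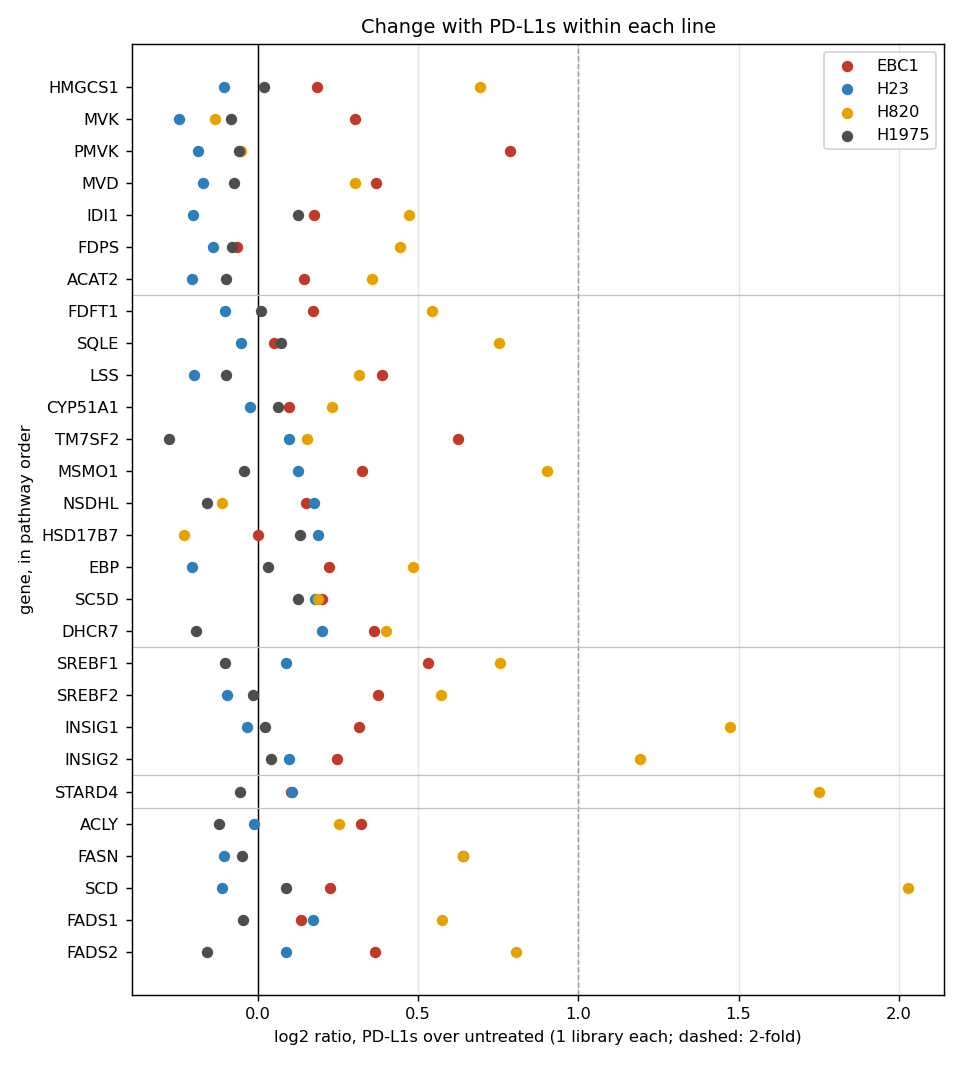
Log2 ratio of the PD-L1s library over the untreated library for each of the 28 genes in each line (1 library each, prior count 5), in pathway order, with a dashed line at 2-fold. The H820 points of SCD, STARD4, INSIG1 and INSIG2 lie beyond 2-fold at 2.03, 1.75, 1.47 and 1.19, and the H23 and H1975 points stay near 0.

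The 4 genes over 2-fold higher in H820 were SCD, STARD4, INSIG1 and INSIG2. SCD had 512 CPM in treated and 125 CPM in untreated H820 spheres, a log2 ratio of 2.03, and its ratio was 0.23 in EBC1, -0.11 in H23 and 0.09 in H1975. STARD4 had 13.2 CPM in treated and 3.73 CPM in untreated H820 spheres (1.75), against 0.10 in EBC1, 0.11 in H23 and -0.06 in H1975. INSIG1 had 138 CPM in treated and 49.5 CPM in untreated H820 spheres (1.47), against 0.32 in EBC1, -0.03 in H23 and 0.02 in H1975. INSIG2 had 104 CPM in treated and 45.6 CPM in untreated H820 spheres (1.19), against 0.25 in EBC1, 0.10 in H23 and 0.04 in H1975.

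Whether the response of H820 differed from that of the other lines was tested as an interaction in edgeR, which takes its error from the pairs of EBC1, H23 and H1975 because H820 has only 1 pair. The response was higher in H820 for 7 of 28 genes, where 2.63% of all genes were called, and lower for 0 (0.368%). These were SCD (1.96 ± 0.203, adjusted p = 1.32e-07), STARD4 (1.77 ± 0.306, adjusted p = 0.000417), INSIG1 (1.38 ± 0.201, adjusted p = 3.80e-05), INSIG2 (1.07 ± 0.199, adjusted p = 0.00101), MSMO1 (0.77 ± 0.197, adjusted p = 0.0247), SQLE (0.73 ± 0.189, adjusted p = 0.0252) and HMGCS1 (0.66 ± 0.187, adjusted p = 0.0471). Only SCD, STARD4, INSIG1 and INSIG2 were called in each of 11 other settings. Without H23 or without H1975 these 4 alone were called, where 1.28% and 1.35% of all genes were. Without EBC1 13 genes were called, where 6.54% of all genes were. With the treated EBC1 and H820 libraries thinned to the depth of their untreated partners, 7 were called, where 2.54% of all genes were. Other measures also moved in H820, where the sum of 5 epithelial markers was 2666 CPM in treated and 1658 CPM in untreated spheres and CD68 131 and 65.9 CPM. Their part in the result was not tested, and PD-L1s cannot be told apart from other differences between the H820 libraries.

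The same test for EBC1 called 0 of 28 genes (0.00827% of all genes higher and 0.00413% lower). An unadjusted p under 0.05 was found for 2 of the 28, and for 1093 of all 24185 genes. The 2 were PMVK at 0.95 ± 0.367 and TM7SF2 at 0.62 ± 0.255 (adjusted p = 1 for both). DESeq2 called 0 with 0 under 0.05, and limma-voom 0 with 1. When H820 was left out, edgeR called 5 genes higher in the response of EBC1, namely FASN (0.71), TM7SF2 (0.64), LSS (0.53), SREBF1 (0.52) and MVD (0.48), and in that fit 2.47% of all genes were called higher.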

How the data were processed

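RNA was sequenced in 8 libraries, 4 lines with 1 PD-L1s and 1 untreated library each, and lines are the pairs, per the labels. Libraries were made from total RNA with a strand-preserving kit after removal of ribosomal RNA, per the labels' protocols. The authors deposited raw counts, as read pairs summed by gene without normalisation. Alignment used STAR 2.7.3a on GRCh37 and counting featureCounts of Subread 2.0.0, per the submitters' processing notes. Exons of a GENCODE basic annotation in GRCh37 coordinates were counted on the reverse strand, with primary alignments only, and pairs overlapping several genes were counted for each, per the file headers. FADS2, FADS1 and TM7SF2 share 49, 80 and 7 exonic bases with FEN1, MIR1908 and VPS51 on their own strand. Exonic length, the other deposited value used, served only for FPKM.

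Counts were tested with edgeR 4.0.16 in R 4.3.3 (quasi-likelihood F test, TMM, minimum count of 10 with the line as group), with line and treatment as terms and Benjamini-Hochberg adjustment over 24185 genes, two-sided, at 0.05. Same-line libraries deviated together (r 0.89 to 0.96 across genes, at most -0.15 with other lines). Deviations were taken from the mean of the 4 lines, which by itself pushes values between lines below 0. All members were named. For the treatment, statistics are given for the 6 genes with the smallest p plus SREBF1, SREBF2 and INSIG1, and from each adjoining list for up to 3 genes by p, of which 1 is not reported here. The members and lists were chosen with earlier results of these data known. Steps were tested on simulated data. Alternatives were DESeq2 1.42.0, limma 3.58.1 (voom), other scalings and filters, protein-coding genes only, omitted libraries or lines, and thinned libraries. Promoters are RefSeq windows (GRCh38.p14). Counting error alone allows 3 counts for a gene at 0.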

Additional observations from a re-analysis of the deposited data

Results flagged for a closer look

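Of 84 groups of 4 values examined (the level of each gene over the 4 PD-L1s and over the 4 untreated libraries, and its log2 ratio over the 4 lines), 6 held a value far from the other 3 by Dixon's criterion, and chance gives about 1 in 20. The log2 ratio of PD-L1s over untreated stood apart in H820 for SCD (2.03), STARD4 (1.75), SQLE (0.75) and FDPS (0.44). It stood apart in EBC1 for PMVK (0.79), where the untreated value rests on 14 read pairs. The level of LSS stood apart in the PD-L1s library of EBC1, at 227 CPM.

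The change from the untreated to the PD-L1s library differed between H820 and the other lines by an interaction test for SCD (1.96), STARD4 (1.77), INSIG1 (1.38), INSIG2 (1.07), MSMO1 (0.77), SQLE (0.73) and HMGCS1 (0.66), all on the log2 scale. H820 has only 1 pair, so the test takes its error from the other lines. PD-L1s cannot be told apart from other differences between the H820 libraries. H820 is also the line whose untreated library was the shallowest, at 5559870 counts. With the treated EBC1 and H820 libraries thinned at random to the depth of their partners, the median difference of the 28 genes was 0.44, against 0.48 without thinning. Thinning left the untreated H820 library as shallow as before, and the part of depth was not tested further.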

How the results depend on the processing

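The counts of genes higher in EBC1 ran from 23 to 25 against H23, 25 to 27 against H820 and 21 to 26 against H1975 over 17 alternatives each, and from 20 to 24 against every line. With library size only they were 23, 26, 26 and 21, and the median of all genes shifted to -0.68 against H23, -0.26 against H820 and -0.24 against H1975. Leaving out libraries gave 1 to 2 genes lower against H23 and 1 to 2 lower against H1975. SREBF1 against H23 changed sign with library size only (-0.052). With libraries left out in turn, FDPS against H23 ran from -0.179 to 0.081 and INSIG2 against H820 from -0.133 to 0.953. None of the values that changed sign was called, and the cause was not tested. For the response of H820, 4 genes were called higher at a minimum count of 50, where 2.42% of all genes were. With library size only or limma-voom 5 were called higher, where 2.01% and 1.72% of all genes were. When a line was left out 4 to 13 were called higher, where 1.28% to 6.54% of all genes were. For the response of EBC1, 0 to 5 were called higher when a line was left out, where 0.00445% to 2.47% of all genes were. For PD-L1s against untreated, 0 genes were called under all 13 alternatives, including the fit without the pairing by line, where the median was 0.17. Over 2-fold higher within H820 were 3 genes with library size only, and 4 with a prior count of 1. A line left out of the response test of its own could not be fitted. Depth limits the untreated EBC1 and H820 libraries most, with 14 read pairs for PMVK and 22 for STARD4.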
